A study of Mus musculus with 6 samples.

Results

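The genes described here are 35 genes of the complement system, matched by gene symbol among the 54532 genes of the count table. They comprise 23 genes made mainly by hepatocytes, the 3 chains of C1q together with the 2 anaphylatoxin receptors, and 7 genes of other or several liver cell types. A filter on low counts left 34 of the 35 to be tested, without Cfd, the gene for complement factor D. The question put to them was how the components that the liver secretes compare with C1q and the receptors when Fam210a is deleted from hepatocytes.

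Liver RNA was sequenced from mice aged 5 weeks in 6 libraries, 3 labelled Ctrl and 3 labelled Fam210aHKO, a hepatocyte-specific knockout of Fam210a. FAM210A is a mitochondrial protein. The genotype field of Fam210aHKO replicates 2 and 3 names other gene numbers, and the titles were followed. The sources used here do not give the Cre driver, the strain or the alleles that the controls carry. The labels do not say whether each library is a separate animal, so p-values measure the spread between these libraries, which may be partly technical. Fam210a itself stood at 119, 136 and 162 CPM in Ctrl and at 31.7, 28.6 and 44.2 CPM in Fam210aHKO, here and below in the order of replicates 1 to 3, a log2 fold change of -1.99 ± 0.194 (SE, edgeR adjusted p = 4.42e-05). CPM stands for counts per 1e6 counts of a library whose total was scaled by its TMM factor, an estimate of library size that is little affected by a few very abundant genes. Libraries held 12.5 to 19.7 M counts (1 M is 1e6), so that 3 counts were 0.132 to 0.261 CPM.

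Complement is a cascade of blood plasma proteins that tags and lyses microbes and clears debris. It starts through the classical pathway (C1q with the proteases C1r and C1s), the lectin pathway (mannose-binding lectins, ficolins and collectins with the MASP proteases) or the alternative pathway. All of these converge on the cleavage of C3 and then of C5, after which C6, C7, C8 and C9 assemble into a membrane pore. Hepatocytes secrete most of the plasma proteins, whereas C1q comes mainly from macrophages, which in the liver are the Kupffer cells, and the receptors for C3a and C5a sit mainly on myeloid cells.

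Of the 34 tested genes 20 were lower and 2 higher in Fam210aHKO at an adjusted p under 0.05 (edgeR quasi-likelihood test, Benjamini-Hochberg adjustment over 13706 genes), and 12 were not called. Among all tested genes 13.5% were called lower and 14.0% higher, 27.5% in either direction. The same numbers, 20 lower and 2 higher, had CPM values that did not overlap between the groups, against 20.7% and 22.0% of all tested genes (42.7% in either direction), and 12 overlapped. The median log2 fold change (log2 of Fam210aHKO over Ctrl, from the edgeR fit) was -0.77 over the 34 genes and 0.02 over all tested genes. A fall of at least 1 log2 unit was called for 15 of the 34, against 6.93% of all tested genes.

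The lower genes were mostly hepatocyte-made. Of these 23 genes 18 fell, none rose and 5 were not called, and their median log2 fold change was -1.14. Of the 5 genes of C1q and the receptors 2 rose, none fell and 3 were not called, with a median of 0.27. Of the 6 tested genes of other or several cell types 2 fell and 4 were not called, with a median of -0.39. The range of log2 fold changes was -3.18 to 0.14 in the hepatocyte-made genes and 0.12 to 1.23 in C1q and the receptors, so the values of these groups met only at their edges. These counts and medians describe the groups, and the difference between them was not tested.

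Hepatocyte markers moved with the secreted components. The 9 markers found in the table summed to 159466 to 238904 CPM in Ctrl and 88572 to 113067 CPM in Fam210aHKO. Of the 9, 5 fell and none rose with TMM scaling, and 3 fell with library totals. The 23 hepatocyte-made complement genes summed to 17384 to 20192 CPM in Ctrl and 8294 to 12816 CPM in Fam210aHKO, without overlap. C1q and the receptors summed to 145 to 196 CPM and 163 to 225 CPM, with overlap. The part of the hepatocyte content or of its general output in the complement values was not tested. In bulk tissue, fewer cells of a type and less RNA per cell cannot be told apart.

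**Figure D1:**
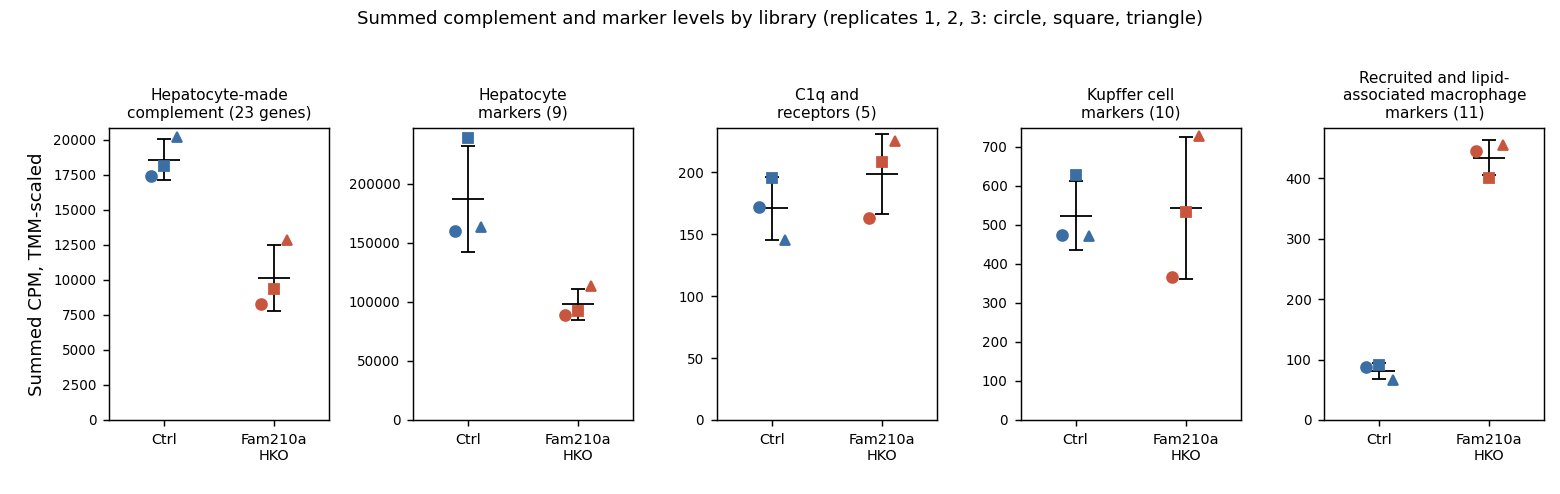
Summed CPM (TMM-scaled, y axes from 0) of the hepatocyte-made complement genes, hepatocyte markers, C1q and receptors, Kupffer cell markers and recruited macrophage markers in each library, with the mean ± SD of 3 libraries. The hepatocyte-made complement sum is 17384 to 20192 CPM in Ctrl and 8294 to 12816 CPM in Fam210aHKO, whereas C1q and the receptors overlap at 145 to 196 and 163 to 225 CPM.

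The position of the fold changes depended on the scaling of the libraries. When library totals replaced the TMM factors, the median of all tested genes moved from 0.02 to 0.47, that of the hepatocyte-made genes to -0.69 (14 lower, 2 higher) and that of C1q and the receptors to 0.73 (5 higher). Under that scaling 7 members were higher and 14 lower, against 42.7% of all tested genes called higher and 6.33% called lower. Every direction given below holds for TMM scaling, and a tested member whose sign or call differed with library totals is named as such. Of the 20 lower genes 14 were lower in all 16 alternatives run, namely C1ra, C1s1, C2, C4a, C4b, C6, C8a, C8b, C8g, C9, Cfhr2, Masp2, Mbl1 and Vtn.

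**Figure D2:**
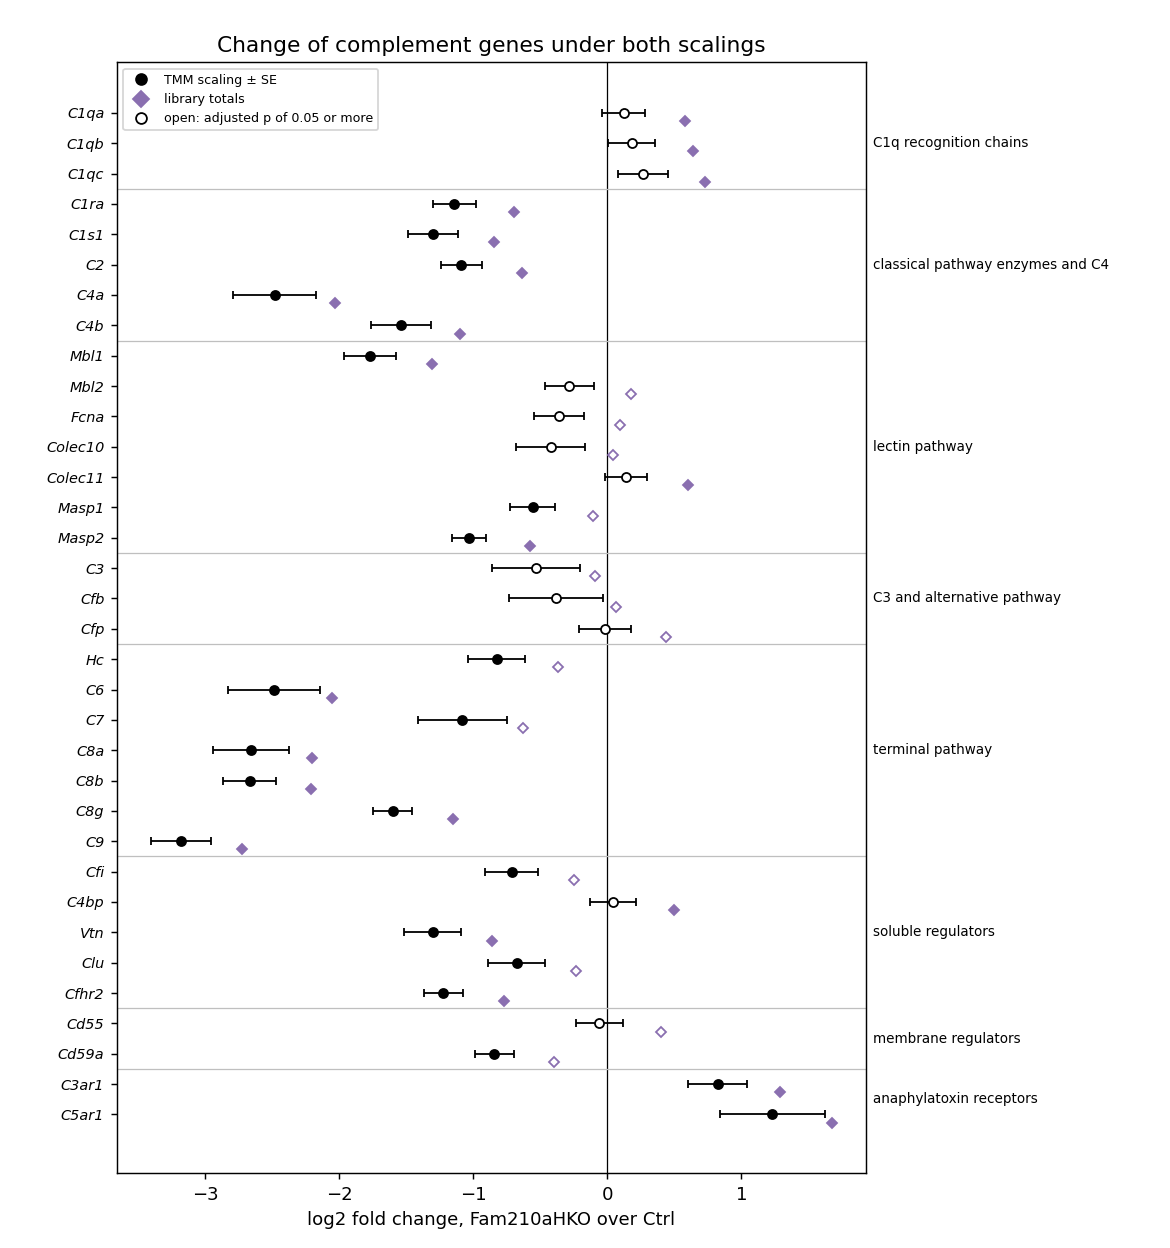
Log2 fold change of the 34 tested complement genes, Fam210aHKO over Ctrl (x axis), by role. Circles with bars are the fit with TMM scaling ± SE, diamonds the fit with library totals, and open symbols have an adjusted p of 0.05 or more. The terminal pathway reaches -3.18 at C9, and the anaphylatoxin receptors lie at 0.82 and 1.23.

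The terminal pathway, whose proteins build the membrane attack pore, was lower throughout. All 7 genes fell, with a median log2 fold change of -2.48, and C9, C8a, C8b and C6 fell most. The stretches just upstream of these 4 genes are printed because these genes had the lowest log2 fold changes of the pathway. They come from RefSeq (GRCm38.p6), run 5′ to 3′ on the strand of the gene and stop at the gene's edge as the count table gives it. Capitals mark matches on either strand to TTNNGNAA, a short form of the site bound by C/EBP factors.
C9 (chr15:6445186-6445326, plus strand): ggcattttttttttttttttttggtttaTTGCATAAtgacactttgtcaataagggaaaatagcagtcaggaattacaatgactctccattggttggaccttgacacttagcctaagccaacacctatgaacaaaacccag
C8a (chr4:104876399-104876558, minus strand): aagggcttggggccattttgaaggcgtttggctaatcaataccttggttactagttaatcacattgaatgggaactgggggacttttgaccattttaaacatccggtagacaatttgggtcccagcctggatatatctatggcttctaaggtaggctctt
C8b (chr4:104766157-104766316, plus strand): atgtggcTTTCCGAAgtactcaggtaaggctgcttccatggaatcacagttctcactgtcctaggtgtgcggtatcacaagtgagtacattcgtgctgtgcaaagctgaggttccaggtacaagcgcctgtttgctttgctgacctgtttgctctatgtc
C6 (chr15:4727050-4727174, plus strand): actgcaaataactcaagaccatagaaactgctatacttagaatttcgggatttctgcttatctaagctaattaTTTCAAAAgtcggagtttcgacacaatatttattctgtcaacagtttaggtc
C9, C8b and C6 each hold 1 such match in the printed stretch and C8a holds none. The motif is common: within 250 bases upstream it occurred in 36.8% of 32851 RefSeq windows and in 12 (46.2%) of the 26 complement genes that the promoter table held.

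C9, the subunit that polymerises to form the pore, showed the steepest fall of the 34 genes. Its gene occupies chr15:6445327-6498751 (mm10). It stood at 448, 675 and 811 CPM in Ctrl and at 67.9, 68.9 and 76.6 CPM in Fam210aHKO. The knockout libraries thus lay close together at 11% of the Ctrl mean, and all Ctrl libraries lay far above them. The log2 fold change was -3.18 ± 0.224 (SE, edgeR adjusted p = 6.97e-06).

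C8, the component that first inserts into the membrane, is built from chains encoded by C8a, C8b and C8g. C8a and C8b are neighbours on chromosome 4 with 11.1 kb between them, pointing at each other, and C8g lies on chromosome 2. C8a stood at 541, 876 and 866 CPM in Ctrl and at 86.9, 102 and 173 CPM in Fam210aHKO, a log2 fold change of -2.66 ± 0.285 (SE, edgeR adjusted p = 8.34e-05). C8b stood at 290, 445 and 446 CPM in Ctrl and at 57.2, 59.7 and 68.7 CPM in Fam210aHKO, a log2 fold change of -2.67 ± 0.197 (SE, edgeR adjusted p = 8.46e-06). The 2 neighbours fell by nearly the same amount, and the C8a count per C8b count averaged 1.93 ± 0.0517 in Ctrl and 1.91 ± 0.529 in Fam210aHKO (SD, n = 3 each). C8g, the lipocalin-like chain, stood at 421, 382 and 356 CPM in Ctrl and at 129, 118 and 134 CPM in Fam210aHKO, and fell less, with a log2 fold change of -1.60 ± 0.146 (SE, edgeR adjusted p = 3.02e-05). No library of either group overlapped the other for any of the C8 chains. C8g overlaps Fbxw5 on the opposite strand, which had at most 894 counts, with the strand setting of the counting not given in the sources used here.

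C6 and C7, which join C5b ahead of C8, are neighbours on chromosome 15. C6 stood at 81.9, 61.0 and 164 CPM in Ctrl and at 12.8, 18.6 and 23.5 CPM in Fam210aHKO, and the log2 fold change was -2.48 ± 0.344 (SE, edgeR adjusted p = 0.000409). The Ctrl libraries spread widely, yet the lowest of them was above all knockout libraries. C7, which several liver cell types express, was scarce at 2.26, 2.76 and 2.96 CPM in Ctrl and 1.34, 1.72 and 0.790 CPM in Fam210aHKO. It fell by 1.08 ± 0.333 on the log2 scale (SE, edgeR adjusted p = 0.0331), but with library totals it was not called (adjusted p = 0.137). Its call was also lost without Ctrl replicate 1, 2 or 3 (adjusted p = 0.0527, 0.0710 and 0.107, edgeR) and without Fam210aHKO replicate 1 or 3 (0.0546 and 0.0856).

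Hc, the gene for C5, fell least among the terminal genes. It stood at 582, 780 and 747 CPM in Ctrl and at 301, 387 and 503 CPM in Fam210aHKO, without overlap. The log2 fold change was -0.82 ± 0.212 (SE, edgeR adjusted p = 0.0142), and with library totals it was -0.37 and not called (adjusted p = 0.156). Ratios of counts within a library do not depend on scaling, and those to Hc were computed after the values were seen, as a description. Since Hc fell least, lower mean ratios to it follow from this choice of denominator. C9 counts per Hc count were 0.770, 0.866 and 1.09 in Ctrl and 0.225, 0.178 and 0.152 in Fam210aHKO. For C8a the ratio was 0.930 to 1.16 in Ctrl and 0.263 to 0.344 in Fam210aHKO, and for C8b it was 0.497 to 0.596 and 0.137 to 0.190. C6, C8a, C8b, C8g and C9 were each lower relative to Hc in every knockout library than in any Ctrl library, as the plot of ratios to Hc shows. C7, which is not plotted, did not share this: its counts per Hc count were 0.00388, 0.00354 and 0.00396 in Ctrl and 0.00444, 0.00444 and 0.00157 in Fam210aHKO, above every Ctrl library in 2 knockout libraries and below them in the other.

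**Figure D3:**
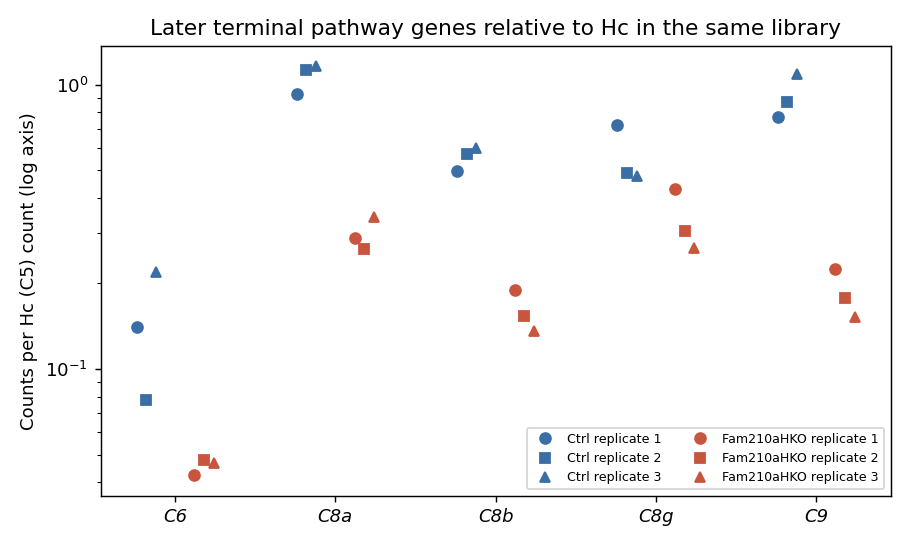
Counts of C6, C8a, C8b, C8g and C9 per Hc count in the same library (log axis), Ctrl in blue and Fam210aHKO in red, with a symbol for each replicate. For each of the 5 genes all Fam210aHKO libraries lie below all Ctrl libraries, with C9 at 0.152 to 0.225 against 0.770 to 1.09. Hc fell least of the terminal genes, and C7 is not plotted.

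The enzymes of the classical pathway and C4 fell together. All 5 genes were lower, with a median log2 fold change of -1.30, and all 5 were also lower with library totals. C1ra and C1s1 encode the proteases of the C1 complex and are neighbours on chromosome 6 with 6.9 kb between them. C1ra stood at 230, 224 and 269 CPM in Ctrl and at 104, 95.8 and 129 CPM in Fam210aHKO, a log2 fold change of -1.14 ± 0.160 (SE, edgeR adjusted p = 0.000427). C1s1 stood at 354, 439 and 447 CPM in Ctrl and at 152, 142 and 209 CPM in Fam210aHKO, a log2 fold change of -1.30 ± 0.185 (SE, edgeR adjusted p = 0.000482). Neither overlapped between the groups. C1ra shares 50.8% of its 50-base stretches with transcripts of other genes, mostly C1rb, and C1s1 shares 21.8% with C1s2, so reads from those stretches may be split between genes.

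C4b, the gene for the C4 protein that C1s and MASP2 cleave, had the highest level per kilobase of these genes, 229 CPM per kb in Ctrl. It stood at 1244, 1098 and 1563 CPM in Ctrl and at 407, 365 and 571 CPM in Fam210aHKO, a log2 fold change of -1.54 ± 0.225 (SE, edgeR adjusted p = 0.000565). C4a, a closely related neighbour on chromosome 17, was scarce at 7.39, 9.50 and 10.8 CPM in Ctrl and 1.24, 2.55 and 1.27 CPM in Fam210aHKO, a log2 fold change of -2.48 ± 0.307 (SE, edgeR adjusted p = 0.000204). The groups did not overlap for either gene. C4a shares 30.6% of its 50-base stretches with C4b, and it had between 0.223 and 0.865 counts per 100 C4b counts, so its values are uncertain. C2, which C1s cleaves to complete the C3 convertase, stood at 40.8, 38.1 and 35 CPM in Ctrl and at 16.3, 16.9 and 20.3 CPM in Fam210aHKO, again without overlap. Its log2 fold change was -1.09 ± 0.154 (SE, edgeR adjusted p = 0.000474), and 38.7% of its 50-base stretches also occur in the read-through gene Gm20547.

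The lectin pathway was mixed. Of its 7 genes 3 fell, Mbl1, Masp1 and Masp2, none rose and 4 were not called, and the median log2 fold change was -0.42. With library totals 2 were lower, 1 was higher and the median was 0.04. Of the mannose-binding lectin genes, whose products recognise sugars on microbes, Mbl1 fell and Mbl2 was not called. Their upstream stretches (RefSeq, GRCm38.p6, 5′ to 3′) are shown to compare the paralogs, with capitals on the longest run of letters that they share, 13 bases. None of the motifs described here matched within 250 bases upstream of either gene.
Mbl1 (chr14:41151296-41151455, plus strand): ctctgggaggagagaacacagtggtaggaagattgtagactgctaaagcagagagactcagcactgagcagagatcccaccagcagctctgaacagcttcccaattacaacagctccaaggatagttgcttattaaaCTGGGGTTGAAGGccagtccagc
Mbl2 (chr19:30232768-30232927, plus strand): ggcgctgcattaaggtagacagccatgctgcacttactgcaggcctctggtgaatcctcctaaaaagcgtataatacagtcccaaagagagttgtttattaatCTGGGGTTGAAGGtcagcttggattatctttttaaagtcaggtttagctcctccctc
Mbl1 stood at 189, 273 and 240 CPM in Ctrl and at 54.8, 68.4 and 83.1 CPM in Fam210aHKO, and fell by 1.77 ± 0.193 on the log2 scale (SE, edgeR adjusted p = 9.33e-05). Mbl2 stood at 268, 329 and 243 CPM in Ctrl and at 217, 190 and 284 CPM in Fam210aHKO, so its groups overlapped. Its log2 fold change was -0.28 ± 0.186 (SE, edgeR adjusted p = 0.290) with TMM scaling and 0.18 with library totals (adjusted p = 0.434), called under neither. The ratio of Mbl2 to Mbl1 counts, computed after the values were seen, was 1.42, 1.21 and 1.01 in Ctrl and 3.96, 2.77 and 3.41 in Fam210aHKO. Every knockout library thus held a higher proportion of Mbl2 to Mbl1 than every Ctrl library, which was not tested further.

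Masp2, the lectin pathway protease that cleaves C4 and C2, stood at 161, 168 and 165 CPM in Ctrl and at 78.9, 80.3 and 82.6 CPM in Fam210aHKO, with little spread in either group. It fell by 1.03 ± 0.128 on the log2 scale (SE, edgeR adjusted p = 0.000207). Its neighbour Tardbp overlaps it on the opposite strand and had at most 1557 counts. Masp1, which activates MASP2, stood at 161, 139 and 184 CPM in Ctrl and at 119, 88.5 and 121 CPM in Fam210aHKO, a log2 fold change of -0.56 ± 0.169 (SE, edgeR adjusted p = 0.0306). Its groups did not overlap, but it was not called with library totals (-0.11, adjusted p = 0.648) nor without Ctrl replicate 1, Ctrl replicate 3 or Fam210aHKO replicate 2 (adjusted p = 0.0635, 0.0989 and 0.137, edgeR). The call was also lost with no filter on low counts (adjusted p = 0.0602) and with limma on log2(FPKM + 1) (0.0534). Rtp4, which overlaps Masp1 on the opposite strand, had at most 353 counts.

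The other recognition molecules were not called. Fcna (ficolin A, a macrophage product) had 45.8 ± 6.97 CPM in Ctrl and 35.6 ± 7.69 CPM in Fam210aHKO (SD, n = 3 each), a log2 fold change of -0.36 (adjusted p = 0.179, edgeR) that was 0.09 with library totals. Colec10, the collectin CL-L1, had 45.4 ± 14.6 and 33.9 ± 8.99 CPM (SD, n = 3 each), a log2 fold change of -0.42 (adjusted p = 0.254, edgeR) that was 0.04 with library totals. When the replicate number entered the fit as a block, Colec10 was called lower (adjusted p = 0.0246, edgeR). Colec11, the collectin CL-K1, had 37.9 ± 5.30 and 41.7 ± 4.43 CPM (SD, n = 3 each), a log2 fold change of 0.14 (adjusted p = 0.546, edgeR). With library totals it was called higher (0.60, adjusted p = 0.00848).

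C3 and the alternative pathway, the amplification loop built from C3, factor B, factor D and properdin, gave no call. C3 had the highest level per kilobase of the 35 genes in both groups, 1374 CPM per kb in Ctrl and 948 in Fam210aHKO. It stood at 6561, 6707 and 7938 CPM in Ctrl and at 3396, 4470 and 6762 CPM in Fam210aHKO. Fam210aHKO replicate 3 lay above Ctrl replicates 1 and 2, and Fam210aHKO replicates 1 and 2 lay below all controls. The log2 fold change was -0.54 with a wide SE of 0.328 (adjusted p = 0.257, edgeR), and it was -0.09 with library totals (adjusted p = 0.828). The C3 upstream stretch (RefSeq, GRCm38.p6, 5′ to 3′) is printed because it held 3 matches to the C/EBP motif TTNNGNAA, shown in capitals, and C3 was not called.
C3 (chr17:57228137-57228296, minus strand): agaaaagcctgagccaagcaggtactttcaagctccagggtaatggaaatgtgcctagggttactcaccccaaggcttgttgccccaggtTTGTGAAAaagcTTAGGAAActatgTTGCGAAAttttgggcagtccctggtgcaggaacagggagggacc
Cfb, the gene for factor B, was scarce at 2.96, 5.20 and 6.39 CPM in Ctrl and 2.20, 3.71 and 5.26 CPM in Fam210aHKO, with overlap, and 73% of its 50-base stretches also occur in Gm20547. Its log2 fold change was -0.38 (adjusted p = 0.459, edgeR), and 0.07 with library totals. Cfp, the gene for properdin, had 33.0 ± 5.90 CPM in Ctrl and 32.6 ± 6.95 CPM in Fam210aHKO (SD, n = 3 each), a log2 fold change of -0.02 (adjusted p = 0.960, edgeR) that was 0.44 with library totals (adjusted p = 0.0774).

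Cfd, which encodes factor D and is made mainly by adipocytes, did not pass the filter on low counts in the main test. It had 24, 2 and 29 counts in Ctrl and 1, 0 and 2 counts in Fam210aHKO. The adipocyte marker Adipoq had 3, 0 and 6 counts in Ctrl and 0 in all knockout libraries, Plin1 had 1, 0 and 5 counts and again 0, and Lep and Retn were at 0 in all 6 libraries. Where a setting let Cfd in, it was called lower in most: without a filter (edgeR adjusted p = 0.000367), without Ctrl replicate 2 (0.000247), without each Fam210aHKO library in turn (0.00746 to 0.0113) and with limma on log2(FPKM + 0.1) (0.0388), but not on log2(FPKM + 1) (0.0777). With so few counts in Fam210aHKO the fitted fold changes depend on the prior count and are not given. Cfd was low in the Ctrl library in which the adipocyte markers were at 0, and their part in its values was not tested.

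Regulators of complement moved unequally. Of the 5 soluble regulators 4 fell, with a median log2 fold change of -0.71 over the 5, and C4bp did not. Vtn, the gene for vitronectin, which binds the nascent pore complex in plasma, stood at 2507, 2004 and 2155 CPM in Ctrl and at 799, 827 and 1075 CPM in Fam210aHKO, a log2 fold change of -1.30 ± 0.214 (SE, edgeR adjusted p = 0.00119). Cfhr2, another soluble regulator gene, stood at 568, 584 and 534 CPM in Ctrl and at 240, 232 and 250 CPM in Fam210aHKO, a log2 fold change of -1.23 ± 0.146 (SE, edgeR adjusted p = 0.000158). Both were free of overlap between the groups. Cfhr2 shares 29.2% of its 50-base stretches with other genes.

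Cfi, the gene for factor I, the protease that inactivates C3b and C4b, stood at 692, 1002 and 769 CPM in Ctrl and at 421, 518 and 564 CPM in Fam210aHKO. It fell by 0.71 ± 0.196 on the log2 scale (SE, edgeR adjusted p = 0.0199). Clu, the gene for clusterin, another inhibitor of pore assembly, stood at 1315, 1063 and 1476 CPM in Ctrl and at 759, 675 and 976 CPM in Fam210aHKO, and fell by 0.68 ± 0.211 (SE, edgeR adjusted p = 0.0345). Neither overlapped, yet with library totals neither was called (adjusted p = 0.281 for Cfi and 0.402 for Clu). The Cfi call was also lost without Ctrl replicate 2 or Fam210aHKO replicate 1 or 2 (adjusted p = 0.0561, 0.0750 and 0.0542, edgeR). The Clu call was lost without Ctrl replicate 1 or 3 and without Fam210aHKO replicate 1 or 2 (adjusted p = 0.0846, 0.110, 0.0887 and 0.138, edgeR) and with limma on log2(FPKM + 1) (0.0526).

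C4bp, the gene for the C4b-binding protein and cofactor of factor I, stood at 683, 802 and 732 CPM in Ctrl and at 835, 786 and 660 CPM in Fam210aHKO. The libraries of the groups were interleaved, with a log2 fold change of 0.04 ± 0.173 (SE, edgeR adjusted p = 0.888), while library totals called it higher (0.50, adjusted p = 0.0380). Its ratio to its ligand's gene C4b, computed after the values were seen, was 0.549, 0.730 and 0.469 in Ctrl and 2.05, 2.16 and 1.16 in Fam210aHKO. The ratio was thus higher in every knockout library than in every control.

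Further motifs were searched, of which 4 are given here, in the same windows of 250 bases, on either strand. TTCNNNGAA (STAT) occurred upstream of C7, C8a, Colec11 and Masp2, 15.4% of the 26 against 7.02% of all windows. For C7 and Masp2 the bases checked just after the start site matched no GENCODE M21 transcript of the gene, so their windows are less certain. GAAA, any 2 bases and GAAA (IRF) occurred upstream of 2 genes (7.69% against 2.98%) and GGG, any 2 bases and TTTCC (NF-kB) upstream of C3ar1 (3.85% against 1.41%). AGGTCA repeated after any base, an HNF4 direct repeat, was found upstream of none of the 26 genes and in 0.0335% of all windows. Complement genes were counted by gene, also C1s1 and C8g with several windows, whereas the percentages of all are by window.

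The membrane regulators protect host cells from complement. Cd59a, which blocks the insertion of C9, stood at 60.9, 49.8 and 59.2 CPM in Ctrl and at 34.9, 29.1 and 30.7 CPM in Fam210aHKO, without overlap. Its log2 fold change was -0.84 ± 0.148 (SE, edgeR adjusted p = 0.00177), and with library totals it was -0.39 and not called (adjusted p = 0.0742). Cd55, which speeds the decay of the convertases, had 18.1 ± 2.83 CPM in Ctrl and 17.4 ± 1.95 CPM in Fam210aHKO (SD, n = 3 each), a log2 fold change of -0.06 (adjusted p = 0.838, edgeR) that was 0.40 with library totals (adjusted p = 0.0751).

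**Figure D4:**
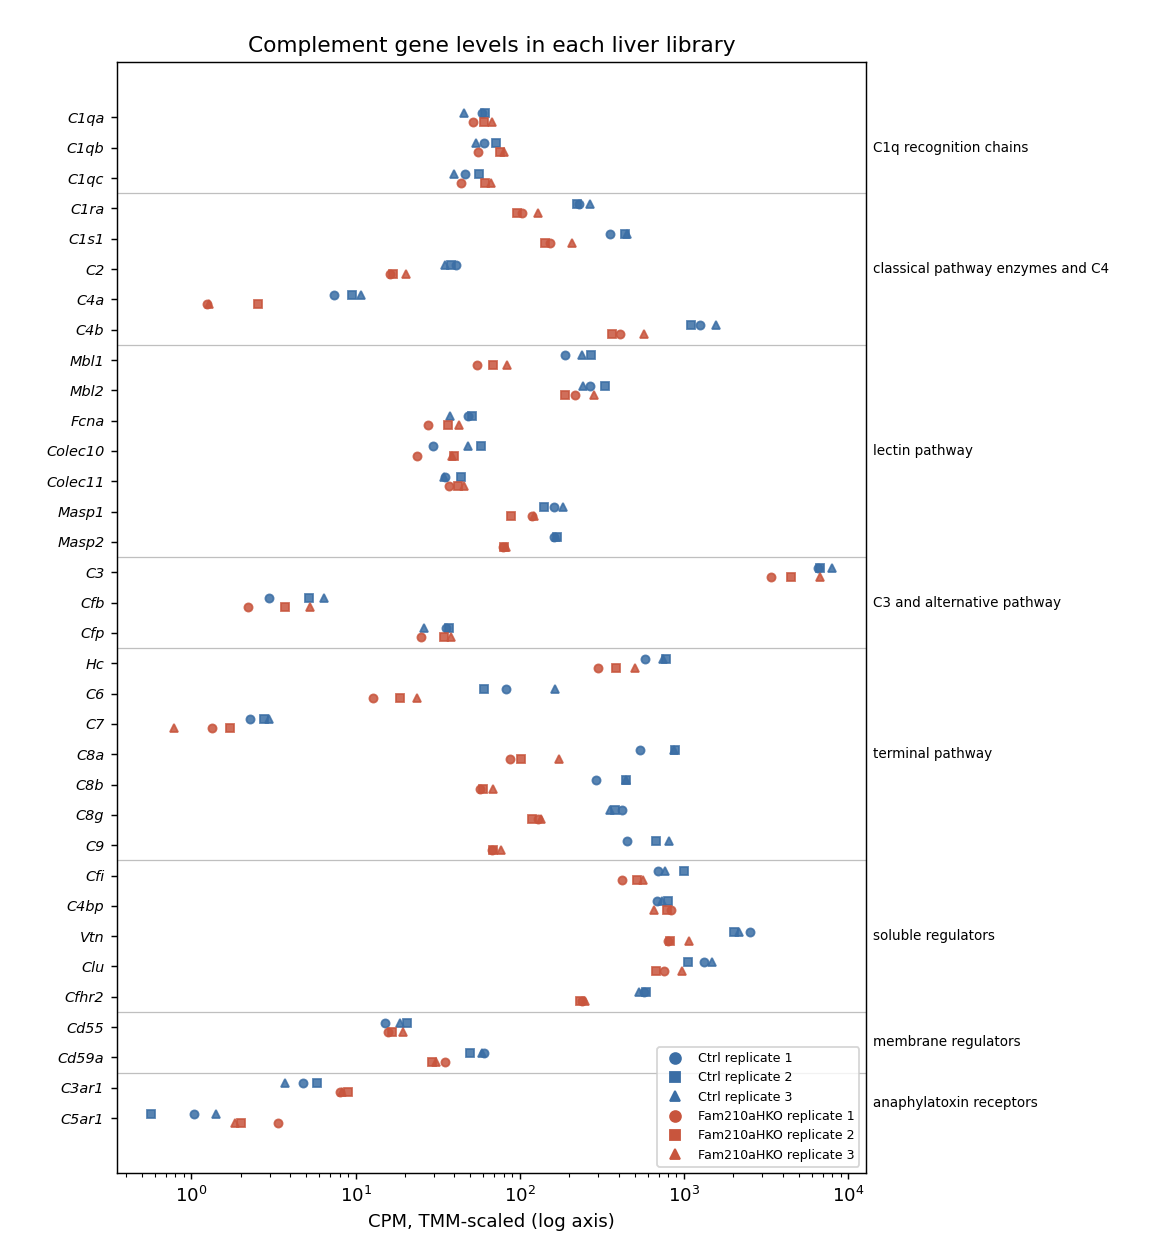
Level of each tested complement gene in each of the 6 libraries, in CPM with TMM scaling (log x axis), Ctrl in blue and Fam210aHKO in red, with a symbol for each replicate. C3 is at the right with 3396 to 7938 CPM, the C1q genes overlap between the groups, and C9, C8a, C8b and C6 are widely separated.

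C1q, the recognition molecule of the classical pathway, was not called with TMM scaling. Its genes C1qa, C1qb and C1qc lie side by side on chromosome 4. C1qa stood at 58.9, 61.1 and 45.8 CPM in Ctrl and at 52.2, 60.3 and 67.8 CPM in Fam210aHKO, a log2 fold change of 0.12 ± 0.162 (SE, edgeR adjusted p = 0.619). C1qb stood at 60.8, 71.8 and 54.4 CPM in Ctrl and at 55.3, 76.1 and 80.6 CPM in Fam210aHKO, a log2 fold change of 0.18 ± 0.175 (SE, edgeR adjusted p = 0.480). C1qc stood at 46.5, 56.6 and 40.0 CPM in Ctrl and at 44.0, 61.3 and 66.9 CPM in Fam210aHKO, a log2 fold change of 0.27 ± 0.189 (SE, edgeR adjusted p = 0.327). In all 3 genes the groups overlapped, with Fam210aHKO replicate 1 inside the range of the controls and Fam210aHKO replicate 3 above it. With library totals all 3 were called higher, at 0.58, 0.64 and 0.73 (adjusted p = 0.0134, 0.0103 and 0.00735, edgeR).

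C1q was also set against Kupffer cell genes in the same library, which removes the scaling, and the ratios overlapped between the groups. The summed C1q counts per count of Adgre1 (F4/80, a macrophage surface marker) were 8.20, 5.68 and 4.75 in Ctrl and 9.71, 5.42 and 4.52 in Fam210aHKO. The mean log2 difference was 0.03 (exact permutation test, two-sided, p = 1). Since 0.1 is the smallest p that 3 libraries against 3 allow, such a test could not have passed 0.05 and shows nothing about stability. Its sign depended on single libraries, since leaving out each in turn gave values from -0.29 to 0.26. Counts of C1q per count of Csf1r, another macrophage gene, were 2.34, 2.25 and 2.14 in Ctrl and 2.81, 2.97 and 2.09 in Fam210aHKO, higher than any Ctrl library in 2 knockout libraries and lower in the other. The mean log2 difference was 0.21 (exact permutation p = 0.4). Per summed count of the 10 Kupffer cell markers C1q stood at 0.351, 0.302 and 0.298 in Ctrl and 0.413, 0.370 and 0.295 in Fam210aHKO, again higher than any Ctrl library in 2 knockout libraries and lower in the other, with a mean log2 difference of 0.17 (exact permutation p = 0.4). Benjamini-Hochberg adjustment over the 3 ratios gave p = 1, 0.6 and 0.6 for these exact tests. The 10 Kupffer cell markers summed to 470 to 627 CPM in Ctrl and 367 to 729 CPM in Fam210aHKO, and 1 of the 10, Marco, rose. With library totals 3 of the 10 were higher. Among all tested genes 14.0% were called higher with TMM scaling and 42.7% with library totals.

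The receptors rose. C3ar1, the receptor for C3a, stood at 4.78, 5.84 and 3.70 CPM in Ctrl and at 8.08, 8.94 and 8.29 CPM in Fam210aHKO, a log2 fold change of 0.82 ± 0.218 (SE, edgeR adjusted p = 0.0165). C5ar1, the receptor for C5a, was scarce, with 12, 7 and 21 counts in Ctrl and 70, 29 and 42 counts in Fam210aHKO, or 1.04, 0.568 and 1.41 CPM against 3.35, 2.0 and 1.84 CPM. Its log2 fold change was 1.23 ± 0.391 (SE, edgeR adjusted p = 0.0377). Counts of each receptor per Adgre1 count, which do not depend on scaling, overlapped between the groups and were not tested. For C3ar1 they were 0.236, 0.175 and 0.125 in Ctrl and 0.518, 0.245 and 0.174 in Fam210aHKO. For C5ar1 they were 0.0515, 0.0170 and 0.0478 in Ctrl and 0.215, 0.0547 and 0.0386 in Fam210aHKO. In CPM neither receptor overlapped between the groups, but each call was lost when single libraries were left out. The C3ar1 call was lost without Ctrl replicate 1, Ctrl replicate 3 or Fam210aHKO replicate 2 (adjusted p = 0.0523, 0.0785 and 0.0566, edgeR). The C5ar1 call was lost without Ctrl replicate 1 or 2 and without Fam210aHKO replicate 1 or 2 (adjusted p = 0.0938, 0.116, 0.154 and 0.0510, edgeR). It was also lost with limma-voom (adjusted p = 0.0527) and with limma on log2(FPKM + 1) and log2(FPKM + 0.1) (0.0878 and 0.0822).

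Markers of recruited and lipid-associated macrophages moved with the receptors. The 11 markers summed to 66.4 to 90.2 CPM in Ctrl and 401 to 456 CPM in Fam210aHKO, 7 of the 11 rose and none fell, and Gpnmb was at 0 in Ctrl replicate 1. Of 3 tested neutrophil markers none was called, with all 7 listed summing to 4.87 to 5.44 CPM in Ctrl and 4.59 to 7.43 CPM in Fam210aHKO. The part of these cells in the receptor values was not tested. Among other cell types, 1 of 8 tested stellate cell markers and 2 of 4 cholangiocyte markers rose. Of 6 sinusoidal endothelial markers 2 fell (none with library totals), and none of 2 tested lymphocyte markers was called. With library totals 5 of the 8 stellate and 3 of the 4 cholangiocyte markers were higher. So were 9 of the 11 recruited and lipid-associated macrophage markers and 1 of the 3 neutrophil markers. The shares of all tested genes called higher were 14.0% with TMM scaling and 42.7% with library totals. The cholangiocyte list shares a gene with the list of recruited and lipid-associated macrophages, so the counts of these lists are not independent.

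The order of levels among the 35 genes differed between the groups. By mean CPM per kb of gene length, C3, Vtn, Clu and Cfi ranked 1 to 4 in both groups. C9 went from rank 8 (252 CPM per kb) to rank 18 (27.8), C8a from rank 10 (209) to rank 16 (33.2) and C8b from rank 11 (155) to rank 22 (24.3). In the other direction C4bp went from rank 15 to rank 7 (110 and 113 CPM per kb) and C1qb from rank 17 to rank 10 (57.3 and 65.0 CPM per kb). C4bp and C1qb gained rank although neither passed the test.

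As a share of all counts, the 35 genes took 1.57%, 1.48% and 1.81% in Ctrl and 1.02%, 1.13% and 1.53% in Fam210aHKO. This share uses no TMM factor, but dividing by all counts amounts to scaling by library totals. The means were 1.62% ± 0.172 and 1.23% ± 0.270 (SD, n = 3 each), and the difference of -0.393 percentage points had p = 0.2 in an exact two-sided permutation test, where 0.1 is the smallest p possible. The share was lower in the Fam210aHKO library of each replicate number, by 0.552, 0.349 and 0.277 percentage points for numbers 1, 2 and 3, and an exact test on these paired differences, chosen after seeing the data, gave p = 0.25, the smallest that 3 pairs allow. C3 alone took 0.581%, 0.533% and 0.700% in Ctrl and 0.403%, 0.518% and 0.784% in Fam210aHKO. Without C3, a split made after the values were seen, the share was 0.991%, 0.943% and 1.11% in Ctrl and 0.617%, 0.609% and 0.748% in Fam210aHKO, and the groups did not overlap.

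Other genes of the complement system were read from a list of genes outside the 35. Of 24 such genes 18 were tested, 8 fell and 1 rose, with a median log2 fold change of -0.98. With library totals 8 were lower and 6 higher, against 6.33% and 42.7% of all tested genes. Among those called lower were Cfhr3 (-2.01) and Serping1, the gene for the C1 inhibitor (-1.55), with adjusted p = 6.13e-05 and 9.32e-05 (edgeR). C1qbp, a mitochondrial matrix protein that also binds C1q, was the gene that rose (0.62, adjusted p = 0.0409, edgeR).

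Acute-phase proteins, the plasma proteins that hepatocytes release in inflammation, were lower for the most part. Of 20 tested 15 fell and 2 rose, with a median log2 fold change of -1.45 (14 lower and 2 higher with library totals). Saa1, a serum amyloid A gene, went from 327, 191 and 162 CPM in Ctrl to between 9.81 and 10.5 CPM in the 3 Fam210aHKO libraries, a log2 fold change of -4.49 ± 0.263 (SE, edgeR adjusted p = 2.29e-06). Apcs, the gene for serum amyloid P, went the other way, from 83.4 ± 26.3 to 233 ± 32.2 CPM (SD, n = 3 each, adjusted p = 0.000601, edgeR).

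Of 14 genes for factors and cytokine receptors that are known to act on complement promoters, 5 fell and 1 rose. With library totals 2 were lower and 2 higher, where 6.33% and 42.7% of all tested genes were. Cebpa, the gene for C/EBP alpha, went from 397, 241 and 336 CPM in Ctrl to 140, 120 and 148 CPM in Fam210aHKO, a log2 fold change of -1.25 ± 0.192 (SE, edgeR adjusted p = 0.00076). Il6ra, the interleukin-6 receptor that drives the acute-phase response, had a log2 fold change of -1.37 (adjusted p = 0.00236, edgeR). Hnf4a had a log2 fold change of -0.77 (adjusted p = 0.0119, edgeR), which was not called with library totals (-0.33, adjusted p = 0.209). Ifngr1, a chain of the interferon gamma receptor, was the gene that rose, with a log2 fold change of 0.68 (adjusted p = 0.00917, edgeR).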

How the data were processed

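Poly-A RNA of 6 liver libraries was measured. Whole-number counts per gene, not normalized, were deposited by the authors, as were FPKM values, with no account of their size factor given in the sources used here. FastQC, Trimmomatic, STAR, featureCounts and DESeq2 with mm10 are named in the submitters' processing notes, without versions, strand setting or treatment of multimapping reads.

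Counts were fitted in edgeR 4.0.16 (R 4.3.3) with group as the only factor: filterByExpr with a minimum count of 10, TMM scaling, quasi-likelihood F test (two-sided), Benjamini-Hochberg adjustment over all 13706 tested genes and a threshold of 0.05. Each SE was taken as the log2 fold change over the root of its F value. The edgeR, DESeq2 and limma-voom fits were tried on simulated counts with as many rises as falls, and the permutation test on a small made-up example. With balanced changes the simulation could not test the choice between TMM scaling and library totals. Alternatives were library totals, DESeq2 size factors, upper-quartile scaling, no filter, a CPM minimum of 1 in 3 libraries, limma-voom (limma 3.58.1), DESeq2 1.42.0, limma on log2(FPKM + 1) and log2(FPKM + 0.1) of genes with a mean FPKM of at least 0.1, leaving out each library, and the replicate number as a block. Same-numbered libraries deviated together (correlations 0.245, 0.182 and 0.155, other pairs -0.141 to -0.0262), so the numbers may pair the samples. Deviations from a mean of 3 libraries cancel out, so positive same-numbered pairs bring negative values in the other pairs. The other pairs are thus no separate evidence. The main fit did not use the numbers, and what they stand for is not given.

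The members, roles, cell sources, markers and other lists were chosen with earlier results of these data known. All 35 members were described, and of other lists up to 3 called genes of smallest p in each direction could be named. Upstream sequences came from the RefSeq promoter table (GRCm38.p6). Shared 50-base stretches were counted in GENCODE M21 transcripts, where 34 of the 35 genes had the coordinates of the count table (mm10). Some genes and a motif are not reported here.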

Additional observations from a re-analysis of the deposited data

How the results depend on the processing

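With library totals 6714 genes were called in place of 3774, 7 members were called higher in place of 2, and the medians were -0.69 for hepatocyte-made genes and 0.73 for C1q and the receptors. With library totals the log2 fold change reversed for Cfb (0.068), Cfp (0.44), Mbl2 (0.18), Fcna (0.093), Colec10 (0.041) and Cd55 (0.40), none of them called under either scaling. It also reversed for Cfp without a filter (0.020) and for C4bp with log2(FPKM + 1) and log2(FPKM + 0.1) (-0.029 each). The members called higher numbered 1 with limma-voom, log2(FPKM + 1) and log2(FPKM + 0.1). Leaving out each library in turn gave 0 to 2 members called higher, and log2 differences of C1q per Adgre1 from -0.29 to 0.26. Uncalled genes changed sign there, with ranges of -0.18 to 0.13 for Cfp, -0.047 to 0.13 for C4bp, -0.19 to 0.032 for Cd55 and -0.017 to 0.20 for C1qa. The cause was not tested. With the replicate number as a block, 4896 genes were called in all, 2 members higher and 21 lower, since Colec10 was added, and no other call among the members changed. No direction of a called gene reversed in any of the 16 alternatives. The other scalings (DESeq2 size factors, upper quartile), DESeq2 and the CPM filter changed no call among the members. Precision is limited by 3 libraries a group, and for C4a, C5ar1, C7, Cfb and Cfd by low counts.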

Other observations

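C1rb, a near-copy of C1ra that also lies on chromosome 6, was too scarce to be tested but stood apart in a single library. It had 4, 142 and 5 counts in Ctrl replicates 1 to 3 and 6, 4 and 11 counts in Fam210aHKO replicates 1 to 3. C1ra in Ctrl replicate 2 stood at 224 CPM, close to the 230 CPM of Ctrl replicate 1. C1rb was singled out after its values were seen.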
